A study of Mus musculus with 3 samples.

Results

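The Eif and Eef genes encode the factors that start and elongate protein synthesis on the ribosome, together with a few enzymes that modify them. Members were all genes whose symbol starts with Eif or Eef and that have at least 1 protein_coding transcript in the annotation, leaving out the eIF2alpha kinases (Eif2ak genes) and the Y-linked Eif2s3y. This rule used names and annotation, not measured values, and gave 64 of the 55536 annotated genes. The libraries were total RNA-seq, after ribosomal RNA depletion, of the cytosol of bone-marrow-derived macrophages from C57BL/6J mice, which are primary cells grown out of marrow precursors in culture. The cells received 100 ng/ml Lipid A, the part of lipopolysaccharide that activates TLR4, for 12 h, spent 12 h without it and were given 100 ng/ml again for 30 min. There was 1 such group of 3 biological replicates, all with the same donor entry and 1 µg of RNA each, and no other treatment, time or cell fraction is compared here. SDs and p-values therefore measure only the spread between these libraries, which may be technical.

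In initiation, eIF2 brings the initiator tRNA to the small ribosomal subunit as a complex with GTP, and eIF2B recharges eIF2 with GTP. eIF3 is the large scaffold on the small subunit, and eIF4F (the cap-binding eIF4E, the scaffold eIF4G and the helicase eIF4A) recruits the mRNA. In elongation, eEF1A delivers charged tRNAs, the eEF1B subunits recharge eEF1A, eEF2 moves the ribosome along the mRNA, and eIF5A helps the ribosome through difficult peptide bonds. In macrophages some of these factors are known as points at which translation of inflammatory mRNAs is adjusted, which was not tested here.

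Depth, the sum of expected counts over annotated genes, was 28759407 (replicate 1), 54709008 (replicate 2) and 49878183 (replicate 3). Levels are TPM, a length-scaled share of each library, and are given as mean ± SD with n = 3 libraries. The authors deposited a pair of quantifications of each library, and values come from the first table unless the second is named. All 7 macrophage markers were detected, with a summed level of 4675 to 4979 TPM. None of the 17 markers of neutrophils, T and NK cells, B cells, stromal cells and erythroid cells was detected, and their summed level was 0.43 to 0.81 TPM.

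Eif4a2-210 and Eef1b2-205, the transcripts of highest TPM in their genes, are annotated as targets of nonsense-mediated decay (NMD), the pathway that degrades mRNAs with a premature stop codon. So are the less abundant Eif4a2-204 and Eif2a-207, and the sequences that carry this are shown first. Each line gives the last coding bases and, in capitals, the stop codon, read 5′ to 3′ from the GENCODE M21 transcripts (mm10, plus strand). The premature stops of Eif4a2-210 and Eif4a2-204 lie at chr16:23110065-23110067 and chr16:23112358-23112360, and the full coding transcript Eif4a2-201 stops at chr16:23113309-23113311. The premature stop of Eef1b2-205 lies at chr1:63178450-63178452, and the full coding transcript Eef1b2-204 stops at chr1:63179610-63179612. The premature stop of Eif2a-207 lies at chr3:58541044-58541046.
Eif4a2-210: ttgcattggaggaacaaatgttcgaaaTGA
Eif4a2-204: cgtgaaaactatattcacaggagtcgaTAG
Eif4a2-201: atgcccatgaatgtggctgacctaattTAA
Eef1b2-205: aaaaagaaaaggccagcctgccgggagTGA
Eef1b2-204: atggatgtggctgcttttaacaagattTAA
Eif2a-207: tttgcctggagcaatggagaaaacttcTAA

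Eif4a2-210 lacks the 140-base exon at chr16:23109120-23109259 that Eif4a2-201 has, and 140 is not a multiple of 3. Its reading frame ends after 97 codons in exon 4 of 10, 648 bases before the last exon junction, whereas Eif4a2-201 has 407 codons. Eif4a2-217 skips the same exon and ends at the same stop. Eif4a2-204 instead includes a 107-base exon at chr16:23112351-23112457 that Eif4a2-201 lacks, and its stop lies 97 bases before the last junction. Eef1b2-205 ends after 68 codons, against 225 in Eef1b2-204, from which it differs in where exon 1 ends and exon 2 starts and in its ends. Eif2a-207 skips a 119-base exon at chr3:58539528-58539646 and ends after 59 codons, against 581 in Eif2a-201.

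Translation factor genes were broadly present in the cytosol. Of the 64 members, 61 had at least 1 TPM in every library and are called detected, whereas 41.2% of the 22028 protein-coding genes were. The median of the detected members was 21.02 TPM, against 8.32 TPM for all detected protein-coding genes. As many as 39 members, or 63.9% of those detected, stayed at or above 10 TPM throughout, against 41.1% of detected protein-coding genes. The 64 genes are 0.291% of protein-coding genes and took 1.06% ± 0.0570 of the TPM of protein-coding genes, with 1.05% in replicate 1, 1.12% in replicate 2 and 1.01% in replicate 3.

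A few genes held most of that. Eef1a1 alone took 31.5% ± 2.12 of the members' TPM, the 6 highest genes 61.0% ± 1.14 and the 10 highest 68.9% ± 0.697. The highest and lowest detected members, Eef1a1 and Eif5a2, differed 794-fold. Between neighbours in the order of levels, only 3 of 60 steps were larger than the spread between libraries, taken as the same sign in every library and a mean difference of more than 3 SD of log2(TPM + 1). These were the steps below Eef1a1, below Eif5a and below Eif2b3, and 14 of the 60 steps had the same order in all libraries.

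**Figure D1:**
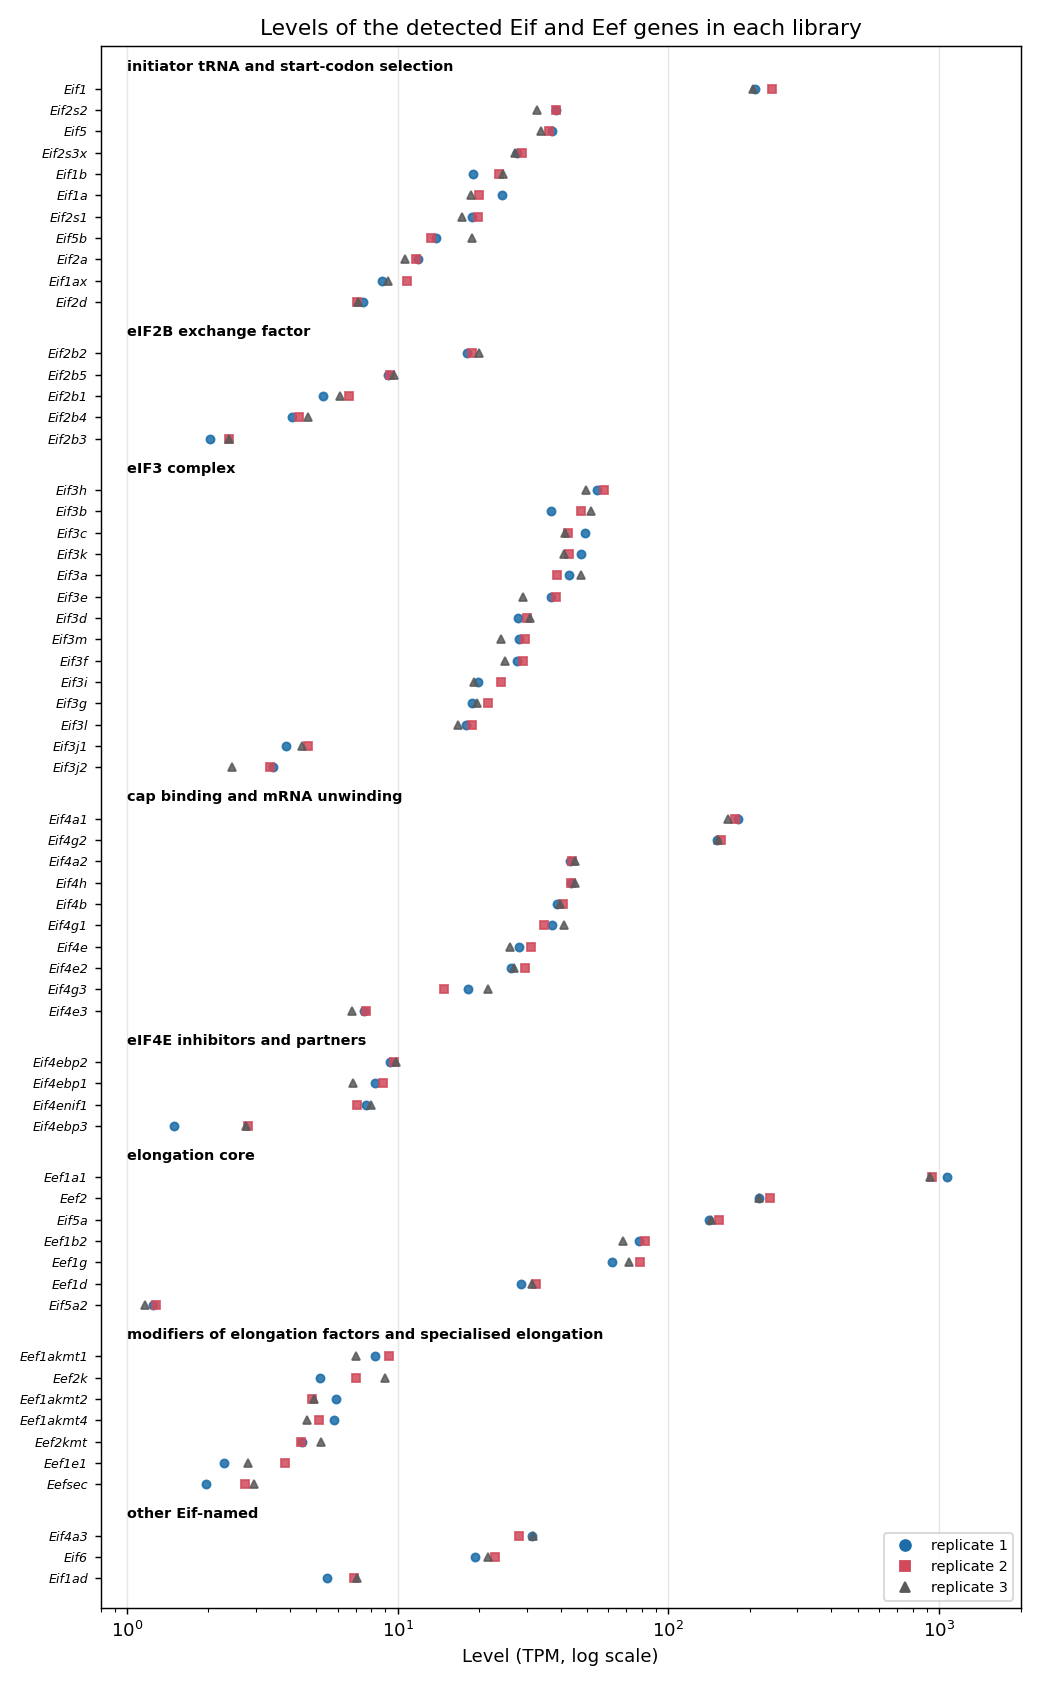
TPM (log scale) of the 61 detected members in each of the 3 libraries, grouped by role, with 1 marker per library. Eef1a1 stands alone at 925 to 1072 TPM, 5 further genes lie above 100 TPM in every library, and the eIF3 genes other than Eif3j1 and Eif3j2 sit between 16.7 and 57.7 TPM.

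Among the genes for initiator tRNA delivery and start-codon selection, all 11 were detected, with a list median of 19.3 ± 0.689 TPM. Eif1, whose product monitors the fit of the start codon, had 208, 242 and 205 TPM in replicates 1, 2 and 3. It was the only one of these genes above 100 TPM, and its paralogue Eif1b had 18.9, 23.6 and 24.5 TPM. Replicate 1 was the lowest for Eif1b, and replicate 2 the highest for Eif1. Eif1 over Eif1b was 3.24 ± 0.198 on the log2(TPM + 1) scale, higher in 3 of 3 libraries and beyond the spread. Among protein_coding transcripts alone it was 2.43 ± 0.245, also beyond the spread.

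The 3 subunits of eIF2 differed in level. The beta subunit gene Eif2s2 had 38.6, 38.5 and 32.8 TPM. The gamma subunit gene Eif2s3x, which binds GTP and the initiator tRNA, had 27.6, 28.9 and 27.1 TPM. The alpha subunit gene Eif2s1, which carries the phosphorylation site of the stress kinases, had 18.9, 19.9 and 17.4 TPM. The 3 genes did not overlap, and Eif2s3x over Eif2s1 was 0.55 ± 0.0533 (log2), beyond the spread. In the second deposited table, before rescaling, that difference was 0.12 ± 0.0558 and no longer beyond the spread.

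Eif5, the GTPase-activating partner of eIF2, was at 35.8 ± 1.77 TPM. Eif5b, which joins the large subunit, had 13.9, 13.3 and 18.8 TPM and was highest in replicate 3. Eif1a and Eif1ax encode near-identical forms of eIF1A, which works with eIF1 in scanning. Eif1a had 24.4, 20.0 and 18.6 TPM. Eif1ax had 8.75, 10.9 and 9.22 TPM, so the genes did not overlap. Their difference was 1.05 ± 0.292 (log2), with Eif1a higher in 3 of 3 libraries, and was 1.10 ± 0.391 without replicate 3 and 0.82 ± 0.275 in the second table, within the spread in both. Among protein_coding transcripts alone it was 1.92 ± 0.224 and beyond the spread. At the low end of the list, Eif2a, an alternative initiator tRNA carrier, averaged 11.4 ± 0.694 TPM. Eif2d, known for initiation and recycling outside the eIF2 route, had 7.47, 7.09 and 7.12 TPM.

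The eIF2B genes encode the exchange factor that stress-phosphorylated eIF2 blocks. All 5 were detected with a median of 6.01 ± 0.641 TPM. The regulatory subunit gene Eif2b2 was highest with 18.0, 18.8 and 19.9 TPM. Its values overlapped with those of Eif2s1. The catalytic subunit gene Eif2b5 followed with 9.18, 9.34 and 9.73 TPM. Replicates differed little for Eif2b2 and Eif2b5, and the values of these genes did not overlap. Eif2b4 had 4.07, 4.32 and 4.65 TPM, and Eif2b3 had 2.03, 2.38 and 2.39 TPM. Over all transcripts, the highest of these subunit genes was thus 8.35-fold above the lowest. Eif2b4 was lower than Eif2b5 by the same sign in 3 of 3 libraries, with a difference of -0.96 ± 0.0404 (log2). Of the Eif2b2 level, 49.2% ± 2.96 was in transcripts annotated as retained intron, chiefly the 338-base Eif2b2-206. Such transcripts held 9.37% ± 1.34 of its expected counts. Among protein_coding transcripts alone Eif2b2 came to 9.60 ± 0.172 TPM and Eif2b5 to 9.42 ± 0.283 TPM, so these genes were close.

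All 14 eIF3 genes were detected, and the highest was 17.4-fold above the lowest, Eif3j2. Without the loosely bound eIF3j subunit, the 12 genes had a median of 32.3 ± 2.15 TPM, and within a library the highest was 3.07 ± 0.0184 times the lowest. Eif3h was highest, with 54.5, 57.7 and 49.6 TPM. Of the core scaffold genes, Eif3b had 36.8, 47.7 and 51.6 TPM, with replicate 1 lowest. Eif3c had 49.2, 42.4 and 41.6 TPM, with replicate 1 highest, and Eif3a averaged 43.1 ± 4.24 TPM. The order of Eif3b and Eif3c was therefore not the same in all libraries. Eif3l was lowest at 17.9, 18.8 and 16.7 TPM, next to Eif3g at 20.0 ± 1.44 TPM. Between these ends lay Eif3k (43.9 ± 3.32 TPM), Eif3e (34.8 ± 5.03 TPM), Eif3d (29.5 ± 1.63 TPM, an eIF3 subunit that can bind the cap of some mRNAs), Eif3m (27.3 ± 2.76 TPM), Eif3f (27.1 ± 2.06 TPM) and Eif3i (19.8, 24.1 and 19.1 TPM).

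The eIF3j subunit is encoded by Eif3j1 on chromosome 2 and Eif3j2 on chromosome 18, whose transcripts match at 99.4% of 2379 aligned bases. Eif3j1 had 3.87, 4.65 and 4.44 TPM, and Eif3j2 had 3.47, 3.37 and 2.44 TPM. The difference of 0.39 ± 0.269 (log2) was within the spread. In the second table, before rescaling, it was -0.83 ± 0.151, with Eif3j2 the higher gene. The split between these copies is therefore uncertain and depends on the model that divided the reads.

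Genes of cap binding and mRNA unwinding held both abundant and absent members, and 10 of 11 were detected. The helicase gene Eif4a1 had 181, 177 and 167 TPM. Eif4g2 (DAP5), a scaffold that lacks the eIF4E-binding region, had 151, 156 and 153 TPM. Both stayed within a narrow range and far above the other genes of this list. Eif4g1, the main eIF4G scaffold, had 37.2, 34.9 and 41.2 TPM, and Eif4g3, its paralogue, had 18.2, 14.9 and 21.5 TPM. Replicate 2 was lowest and replicate 3 highest for both. Eif4g2 over Eif4g1 was 2.00 ± 0.131 (log2) and Eif4g1 over Eif4g3 was 1.02 ± 0.138, both with the same sign in 3 of 3 libraries and beyond the spread.

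The cap-binding gene Eif4e had 28.0, 31.2 and 26.1 TPM. Eif4e2 (4EHP), a cap-binding protein linked to repression, had 26.3, 29.6 and 26.9 TPM. The values overlapped, and the difference of 0.04 ± 0.0704 (log2) was within the spread, though beyond it without replicate 3 (0.08 ± 0.0114). Eif4e3 had 7.54, 7.64 and 6.80 TPM, below Eif4e by 1.82 ± 0.0688 (log2). Eif4e1b, known from oocytes, had 0 expected counts in all libraries, for which 3 counts are the upper limit, or 0.104, 0.0548 and 0.0601 CPM in replicates 1, 2 and 3. The second table gave it 11.6, 11.1 and 25.4 estimated counts. The helicase cofactor genes Eif4b and Eif4h averaged 39.9 ± 1.02 and 44.3 ± 0.754 TPM, and the difference of -0.15 ± 0.0422 (log2) was beyond the spread with 3 libraries but not without replicate 1 (-0.14 ± 0.0520) or replicate 3 (-0.13 ± 0.0514). Eif4a1 exceeded Eif4e by 2.58 ± 0.102 (log2), and Eif4e exceeded its inhibitor gene Eif4ebp1 by 1.71 (Eif4ebp1 minus Eif4e was -1.71 ± 0.0700), each in 3 of 3 libraries.

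The 4E-BP genes, whose products hold eIF4E away from eIF4G until mTOR phosphorylates them, were low. Eif4ebp2 had 9.37, 9.67 and 9.88 TPM. Eif4ebp1 had 8.26, 8.83 and 6.84 TPM, with replicate 3 lowest. Eif4ebp1 was below Eif4ebp2 in 3 of 3 libraries, but the difference of -0.25 ± 0.193 (log2) was within the spread. It was beyond the spread without replicate 3 (-0.14 ± 0.0318) and among protein_coding transcripts alone (-0.72 ± 0.199). Eif4ebp3 had 1.49, 2.80 and 2.76 TPM from 36.7, 146 and 122 expected counts, so replicate 1 was lowest. It lies inside a longer protein-coding gene of the same strand, AC115631.1, at 5.15 ± 0.664 TPM, and reads of the shared part are divided by model. Eif4enif1, a carrier of eIF4E into the nucleus, averaged 7.58 ± 0.452 TPM.

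The elongation core was the most abundant group, with a summed level of 1528 ± 71.7 TPM over 8 genes, 7 of them detected. Eef1a1 (ENSMUSG00000037742.14, chr9:78478449-78489151, minus strand) had 1072, 941 and 925 TPM. Eef2 (ENSMUSG00000034994.10, chr10:81176631-81182498, plus strand) had 216, 237 and 216 TPM. Replicate 1 was highest for Eef1a1 and replicate 2 for Eef2, and Eef1a1 exceeded Eef2 by 2.13 ± 0.163 (log2) in 3 of 3 libraries. Eef1a2, the eEF1A gene of muscle and neurons, had 0, 1 and 0 expected counts. Eef1a1 was higher by 9.93 ± 0.120 on the log2(TPM + 1) scale, a size that the added 1 TPM sets.

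Eif5a, which carries hypusine (a modified lysine), had 141, 154 and 144 TPM. Its paralogue Eif5a2 had 1.25, 1.28 and 1.17 TPM and was the lowest detected member. The difference was 6.04 ± 0.0544 (log2), which understates the ratio of the mean TPM values, 119. Of the exchange subunits, Eef1b2 had 77.9, 82.3 and 68.1 TPM. Eef1g, a structural subunit, had 62.1, 78.9 and 71.3 TPM. The values overlapped, and their difference of 0.11 ± 0.199 (log2) was within the spread, and without replicate 1 it was -0.0024 ± 0.0880. Eef1d averaged 30.8 ± 2.06 TPM.

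Modifiers of the elongation factors were low, with 7 of 8 genes detected and a list median of 4.73 ± 0.0929 TPM. Eef2k, the kinase that inhibits eEF2, had 5.17, 6.99 and 8.98 TPM. Its libraries differed more than those of most members (SD of log2(TPM + 1) 0.347, second to Eif4ebp3 at 0.348). Its transcripts annotated as retained intron held 3.09%, 27.04% and 30.1% of its TPM in replicates 1, 2 and 3, and 0.627%, 6.68% and 7.54% of its expected counts. Its protein_coding transcripts came to 5.46 ± 0.709 TPM, against 7.05 ± 1.91 TPM for the whole gene. Eef2 exceeded Eef2k by 4.83 ± 0.355 (log2) in 3 of 3 libraries. The lysine methyltransferase gene Eef1akmt1 had 8.24, 9.27 and 6.99 TPM, and Eef1akmt2, Eef1akmt4 and Eef2kmt averaged 5.22 ± 0.599, 5.19 ± 0.599 and 4.68 ± 0.459 TPM. Eef1akmt3 had 1, 0 and 0 expected counts and was not detected. Eefsec, the factor for selenocysteine, had 1.96, 2.73 and 2.94 TPM. Eef1e1 (AIMP3), part of the multi-tRNA-synthetase complex, had 2.28, 3.84 and 2.79 TPM, and replicate 2 was highest.

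Of the remaining Eif-named genes, Eif4a3, the helicase of the exon junction complex, had 31.4, 28.0 and 31.5 TPM. Eif6, which keeps the ribosomal subunits apart, had 19.4, 22.9 and 21.7 TPM, and Eif5a exceeded it by 2.73 ± 0.0687 (log2). Eif1ad averaged 6.48 ± 0.879 TPM.

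In all, 17 of 21 pairs of related or partner genes differed within the libraries by more than the spread. The 4 that did not were Eif4e and Eif4e2, Eif4ebp1 and Eif4ebp2, Eif3j1 and Eif3j2, and Eef1b2 and Eef1g. The call is a rule of size and not a p-value, since a two-sided exact sign-flip test with 3 libraries cannot go below p = 0.25. The pairs were chosen with earlier results known, and the rule was not applied to pairs drawn from all genes. The count of called pairs therefore shows nothing particular to related genes.

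**Figure D2:**
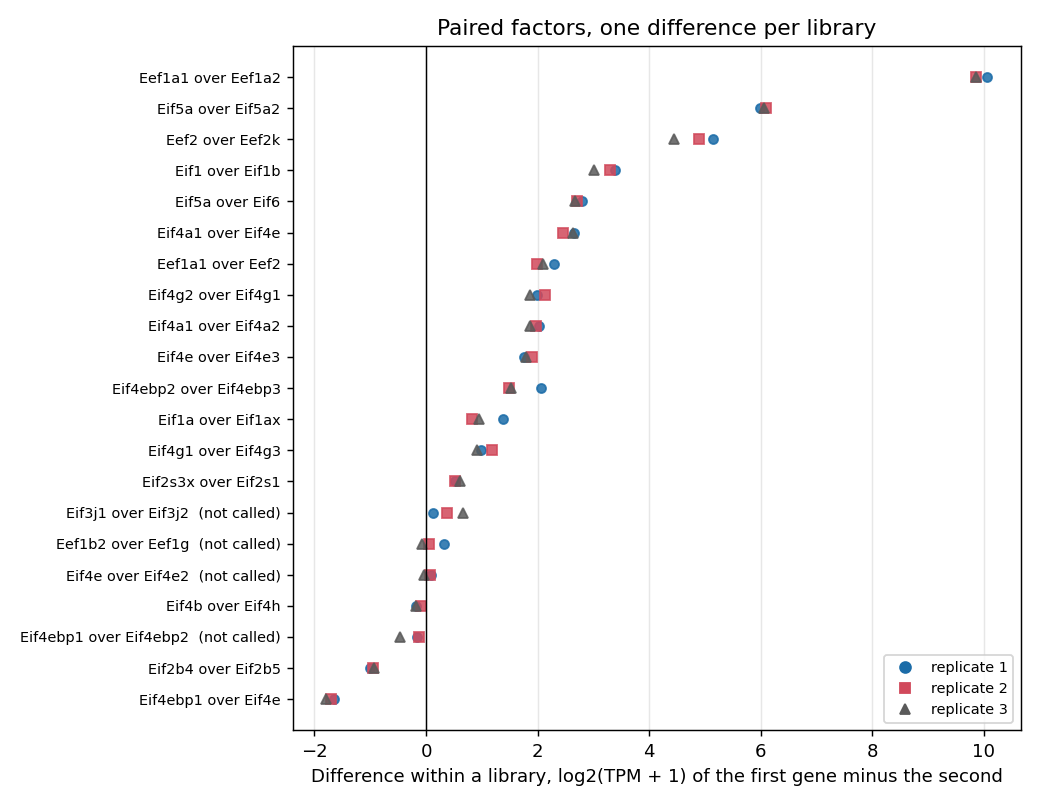
Difference of log2(TPM + 1) between the genes of each of 21 pairs within a library, first gene minus second, with 1 marker per library and pairs ordered by their mean. The markers lie on 1 side of 0 in every library for all pairs but Eef1b2 over Eef1g and Eif4e over Eif4e2.

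Genes that act on these factors, or in other parts of cytosolic or mitochondrial translation, were present too, and 46 of 47 listed genes were detected. Of the eIF2alpha kinases and phosphatase subunits, 6 of 6 were detected. Among the kinases, Eif2ak2 (PKR, which senses double-stranded RNA) was highest at 35.9 ± 4.27 TPM and Eif2ak3 (PERK, of the endoplasmic reticulum) lowest at 1.89 ± 0.196 TPM. Ppp1r15a (GADD34), the inducible subunit that directs eIF2alpha dephosphorylation, had 124, 163 and 39.8 TPM and was lowest in replicate 3, while the constitutive Ppp1r15b averaged 22.4 ± 2.88 TPM. In the mTOR and MNK arm 8 of 8 were detected, from Mknk2, an eIF4E kinase, at 30.8 ± 1.87 TPM to Pdcd4, an inhibitor of eIF4A, at 2.17 ± 0.252 TPM. Among the poly(A)-binding and ternary-complex helpers 10 of 10 were detected, led by the poly(A)-binding protein gene Pabpc1 at 229.6 ± 4.62 TPM, with Paip2b lowest at 1.72 ± 0.0907 TPM. All 8 hypusine and diphthamide enzymes were detected, with the hypusine enzyme Dhps highest at 12.5 ± 0.4996 TPM and the diphthamide enzyme Dph2 lowest at 1.57 ± 0.170 TPM. Of the termination and recycling genes 5 of 6 were detected, with the release factor gene Etf1 highest at 28.4 ± 0.650 TPM and Gspt2, at 0.193 ± 0.0513 TPM, the 1 that was not. All 9 mitochondrial translation factors were detected, from Tufm at 12.4 ± 0.498 TPM to Mtrf1l at 1.79 ± 0.377 TPM.

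Most of the members' TPM was in transcripts annotated as protein_coding, but not for every gene. Summed over the members the share was 91.1% ± 1.21, against 92.9% ± 0.369 over all protein-coding genes. By expected counts the order was the other way, with 97.2% ± 0.419 for the members and 96.2% ± 0.279 for all protein-coding genes. Of the 61 detected members, 43 had at least 95% of their TPM there and 9 had less than 75%. NMD-annotated transcripts took 2.51% ± 0.131 of the members' TPM and 1.68% ± 0.0381 of that of all protein-coding genes. By expected counts these shares were close, at 1.40% ± 0.0737 and 1.36% ± 0.0357. Without Eif4a2, Eef1b2 and Eif1, a choice made after their values were seen, the members' NMD share of TPM was 0.440% ± 0.0281. Eif1 itself had 0% of its TPM in NMD-annotated transcripts, so leaving it out changed only the total.

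Eif4a2 (ENSMUSG00000022884.15, chr16:23107444-23114136, plus strand), the paralogue of the helicase gene Eif4a1, had 43.5, 44.1 and 45.3 TPM. Eif4a1 exceeded it by 1.95 ± 0.0897 (log2), and by 3.96 ± 0.156 among protein_coding transcripts alone, in 3 of 3 libraries each. The NMD-annotated transcripts of Eif4a2 held 69.9%, 75.8% and 68.1% of its TPM in replicates 1, 2 and 3. They led in every library, by expected counts (78.7% ± 3.92) and in the second table (56.3% ± 3.90) as well. Eif4a2-210, whose premature stop is shown above, had 20.4, 18.5 and 21.02 TPM, and Eif4a2-204 had 7.94, 10.2 and 7.19 TPM. All protein_coding transcripts of the gene together came to 9.95 TPM. Several annotated transcripts of Eif4a2 are fragments of unlike length that share most exons, so these shares rest on the model that assigned the reads, and the effect of this was not tested.

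Eef1b2 (ENSMUSG00000025967.16, chr1:63176825-63180486, plus strand) had 41.6%, 45.6% and 47.7% of its TPM in NMD-annotated transcripts. By expected counts the share was 34.2% ± 2.60, and it was 49.3% ± 3.45 in the second table. Eef1b2-205, with the stop shown above, had 32.2, 37.3 and 31.7 TPM, next to the protein_coding Eef1b2-209 at 29.5, 30.5 and 26.9 TPM. The full coding Eef1b2-204 had 10.8, 11.0 and 8.22 TPM. By expected counts the 1939-base Eef1b2-204 held 36.3% ± 2.63 of the gene and the 691-base Eef1b2-205 held 33.7% ± 2.26. Eef1b2-205 thus led by TPM but not by mean share of counts. From protein_coding transcripts alone Eef1b2 came to 39.0 TPM and Eef1g to 61.0 TPM, and their difference was -0.63 ± 0.144 (log2), with Eef1g the higher gene. Eif2a-207 held 23.6% ± 4.76 of the TPM of Eif2a in the first table and 10.4% ± 3.20 in the second.

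In most of the other genes with a low coding share the main non-coding transcript was far shorter than the coding one, and the share depended on the scale. Eif1-202, a 383-base processed transcript, held 42.5% ± 2.51 of the TPM of Eif1 but 10.01% ± 1.18 of its expected counts. Eif1ax-202, a 416-base retained intron, held 50.01% ± 2.66 of the TPM and 3.82% ± 0.498 of the counts of Eif1ax, whose coding transcript is 5172 bases long. Eif4a3-203, of 466 bases, held 45.3% ± 3.07 of the TPM and 13.7% ± 1.13 of the counts of Eif4a3. Eif4ebp1-202, of 798 bases, held 31.3% ± 0.856 of the TPM and 12.9% ± 0.508 of the counts of Eif4ebp1. In Eef1akmt2 the lengths were less unlike. Its NMD-annotated transcripts held 22.3% ± 3.62 of its TPM, 12.0% ± 2.93 of its counts and 20.9% ± 1.45 in the second table. Of the 9 genes below 75% by TPM, 8 were also below it in the second table and 2, Eif4a2 and Eef1b2, by expected counts. Eif5b and Eif2s1 fell below 75% in the second table only. The protein_coding share of Eif5b was 96.8% ± 2.02 in the first table and 46.6% ± 2.84 in the second. For Eif2s1 it was 84.4% ± 4.44 and 61.1% ± 4.69.

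**Figure D3:**
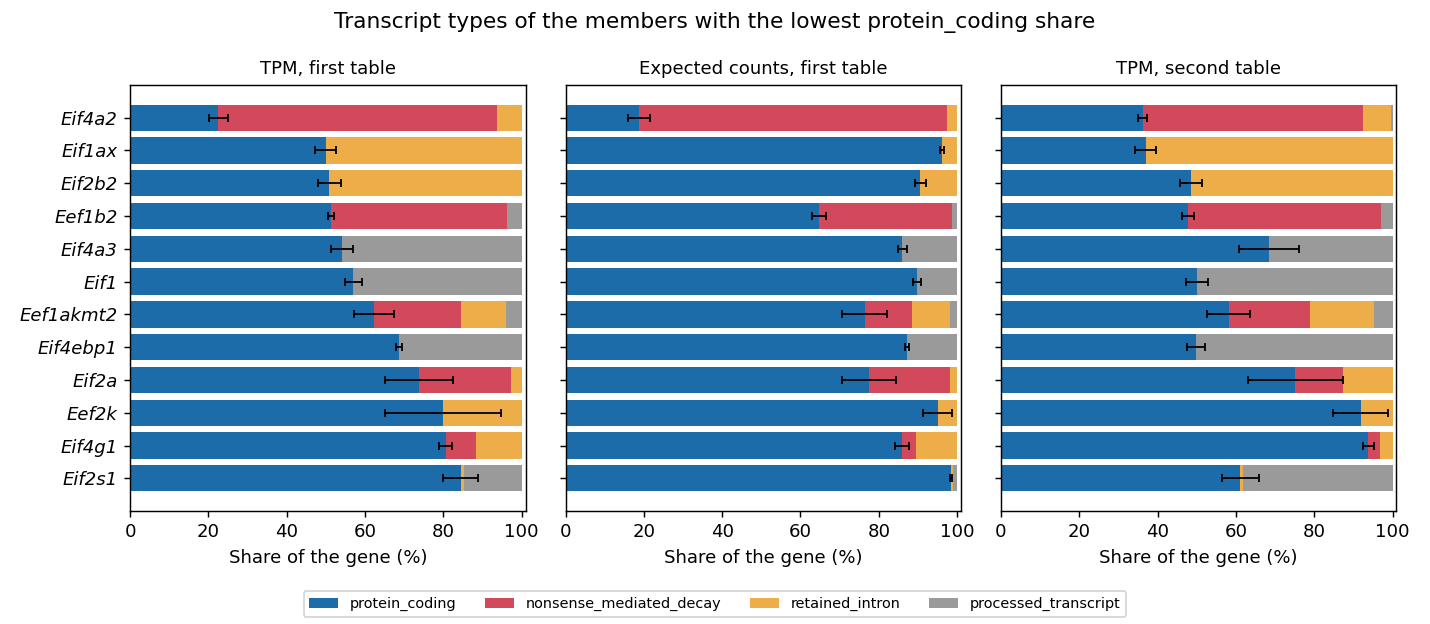
Share of each gene (%, mean of 3 libraries) in 4 annotated transcript types for the 12 detected members with the lowest protein_coding share, by TPM and by expected counts of the first table and by TPM of the second, with bars of ± SD on the protein_coding share. Eif4a2 is mostly NMD-annotated in all 3 panels, while Eif1ax, Eif2b2 and Eif1 are mostly protein_coding by counts.

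The libraries resembled each other closely for these genes. The median coefficient of variation of TPM was 8.53% over detected members and 9.50% over detected protein-coding genes. In edgeR, the median biological coefficient of variation of the members was 0.119 (61 genes), against 0.134 over 12738 genes. It was below the trend for genes of the same abundance in 43 of 61 members, and in 74.2% of all genes. The 6 members with the largest SD of log2(TPM + 1) were Eif4ebp3, Eef2k, Eef1e1, Eif5b, Eif4g3 and Eif3b.

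Replicate 2 was slightly higher than the others for most members. Each library's TMM-scaled count was set against the mean of the other 2 over the 13403 genes whose mean count reached 10, which include 61 members. In replicate 2, 52 of 61 members (85.2%) were higher, with a median of 0.18 (log2), whereas 55.1% of all genes were higher, with a median of 0.03. In replicate 1, 16 of 61 were higher with a median of -0.08, against 46.3% of all genes. In replicate 3, 17 of 61 were higher with a median of -0.08, against 46.9% of all genes. Replicate 2 is also the deepest library, and the part of depth in this was not tested. The differences were small: Eef1e1 was the only member at least 1.5-fold higher in replicate 2 (0.63, log2), against 3.6% of all genes, and no member was 1.5-fold lower, against 8.51%. In replicate 1, Eif4ebp3 was the only one at least 1.5-fold lower (-0.97, log2), against 6.01% of all genes, and none was higher, against 4.1%. In replicate 3 no member passed 1.5-fold, against 8.01% of all genes higher and 5.44% lower, and the widest departures were Eif3j2 at -0.53 and Eif5b at 0.41 (log2).

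**Figure D4:**
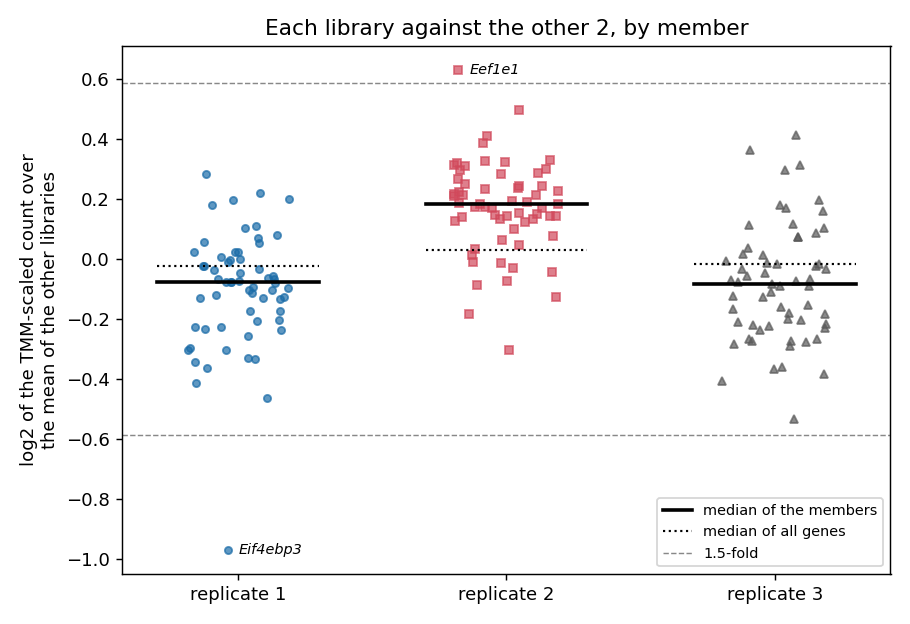
log2 ratio of the TMM-scaled count in each library to the mean of the other 2, for 61 members (points), with the members' median (solid line), the median of 13403 genes (dotted line) and 1.5-fold (dashed lines). The members' median lies at 0.18 in replicate 2 and at -0.08 in replicates 1 and 3, and Eef1e1 and Eif4ebp3 are the only points past 1.5-fold.

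The second deposited table gave much the same levels. After both were scaled to the same TPM total of nuclear protein-coding genes, all 39 members with a mean of at least 10 TPM were within 0.5 (log2) between the tables, as were 98.0% of protein-coding genes at that level. The 6 of them that differed most were Eif2s1 (0.34 higher in the second table, log2), Eif4a3 (-0.30), Eif4e (0.26), Eif3c (0.21), Eif3b (-0.20) and Eif5b (0.18). For Eif2s1 the second table gave 24.0 ± 1.70 TPM. Below 10 TPM, Eif3j1 and Eif3j2 stood apart with -0.53 and 0.88.

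**Figure D5:**
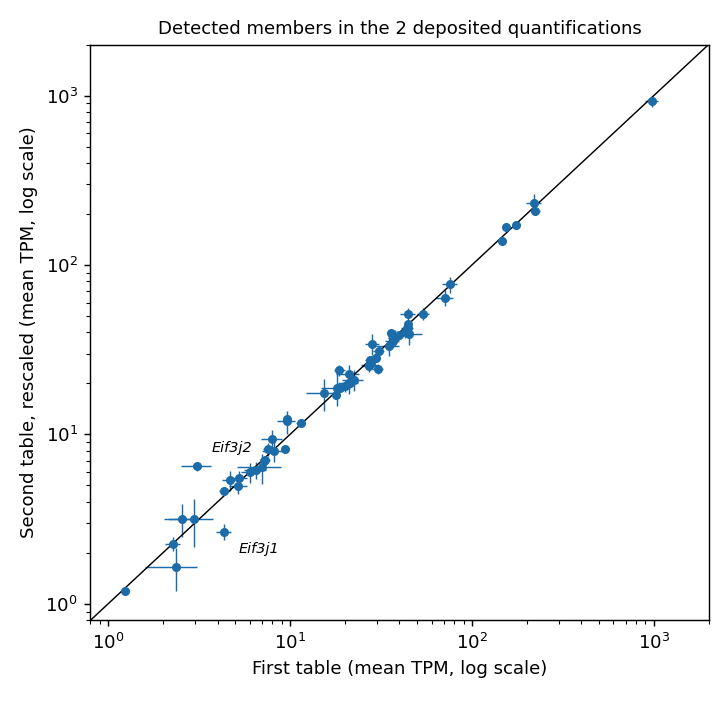
Mean TPM of the 61 detected members in the first table and in the second after rescaling to the same nuclear protein-coding total (log scales), with bars of ± SD over 3 libraries and the line of equal values. Eif3j1 lies below the line and Eif3j2 above it.

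Pseudogene copies took few reads of these genes. A copy of at least 95% identity over at least 80% of the shorter transcript existed for 17 members. Apart from the Eif3j1 and Eif3j2 pair, the largest mean share of expected counts in copies was 2.05% ± 0.155, that of Gm2223 beside Eif2s3x. Its highest value in a library was 2.16%. The 9 copies of Eef1a1 held 1.16% ± 0.135. The other paralogues were less alike: Eif4a1 and Eif4a2 matched at 78.9% of 1187 bases and Eef1a1 and Eef1a2 at 80.6% of 1383 bases. A detected protein-coding gene on the other strand overlapped 12 detected members. Whether counting used strand is not given in the sources used here, so reads of Eif2a (11.4 TPM) and of the overlapping Serp1 (122 TPM), for example, may be mixed.

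RefSeq windows from 250 bases before to 50 after the annotated start (GRCm38.p6, the same assembly as mm10) were at hand for 48 members. mRNAs of many translation factors are known for a pyrimidine tract right at the 5′ end, through which mTOR controls them. A C at the start followed by at least 4 pyrimidines was found for 2 of 48 members (4.17%), against 2.90% of 7282 detected protein-coding genes. The 2 are shown from 10 bases before the start to 20 bases from it on, with the tract in capitals; Eif2s3x lies at chrX:94212632-94212661 (minus strand) and Eif3f at chr7:108934405-108934434 (plus strand).
Eif2s3x: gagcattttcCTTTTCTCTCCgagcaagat
Eif3f: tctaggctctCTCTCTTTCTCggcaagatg

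These letters depend on the annotated start base. At theirs, Eef1a1 and Eef2 had tracts of 0 bases. The Eef1a1 start used lay within chr9:78481705-78481734 (minus strand), inside a gene that reaches to chr9:78489151. Tracts at other starts can be missed in this way, so the number of members found with a tract may be too low. The motif CACGTG, which is the same on both strands, was in the windows of 13 of 48 members (27.1%), among them Eef2, Eif4a1, Eif4e, Eif4g1 and Eif5a, and in 12.8% of detected protein-coding genes and 8.09% of all 27025 genes with a window. CCGGAAGT, on either strand, was in 8 of 48 (16.7%), against 11.0% of detected protein-coding genes. Genes with several annotated starts, such as Eif5a, had more windows in which to match.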

How the data were processed

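Members, gene lists and pairs were chosen with earlier results of these data known. The authors used mm10 and GENCODE M21, per a text file deposited beside each table. The deposited first tables hold expected counts and TPM per gene and transcript, from alignments to the transcriptome. The deposited second table holds estimated counts and TPM per transcript, from reads with an index, summed here to genes. Not given in the sources used here are the quantifiers, their versions and the use of strand. Rows naming no gene, 0.774%, 0.207% and 0.167% of expected counts in replicates 1, 2 and 3, were left out of library sizes. TPM is divided by length, so short transcripts gain share. Limits for a count of 0 cover counting error only.

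A pair difference was taken within each library as log2(TPM + 1), which understates differences of low genes, and called with 1 sign in all libraries and a mean above 3 SD. Pair differences in the second table used its TPM before rescaling, which is lower, so the added 1 TPM shrinks them more. Expected counts were rounded and TMM-scaled in edgeR 4.0.16 (R 4.3.3), with dispersions after filterByExpr. Ratios between libraries used genes whose mean count reached 10, and 1.5-fold as the limit. Copies were found with blastn 2.17.0. Other steps used Python 3.11.15 and pandas 2.3.3. The methods were tested on simulated data. Alternatives were leaving out each library, other detection limits, pseudocount 0.1, the second table, expected counts, protein_coding transcripts alone and DESeq2 1.42.0 size factors and dispersions. Values per library are given for the 10 highest members, the ends of each role list, the genes of each pair, the most variable members, those past 1.5-fold and those that differ most between tables; other members are named by role.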

Additional observations from a re-analysis of the deposited data

How the results depend on the processing

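No paired analysis was possible because the labels give 1 group only. Leaving out each replicate gave 61 detected members each time, 1.03% to 1.09% of protein-coding TPM, 16 to 17 called pairs, a median biological coefficient of variation of 0.112 to 0.130 and 90.4% to 91.6% of TPM in protein_coding transcripts. Detected members numbered 50 at 5 TPM and 57 in the second table before rescaling. With expected counts in place of TPM the members' share was 1.14% and the protein_coding share 97.2%, and without Eef1a1 the share was 0.727%. Called pairs numbered 16 in the second table and 19 among protein_coding transcripts. Eef1b2 over Eef1g ranged over -0.0024 to 0.19 with 1 library left out, below 0 without replicate 1, and was -0.63 among protein_coding transcripts, and Eif3j1 over Eif3j2 was -0.83 in the second table; the cause was not tested. Members past 1.5-fold numbered 3, 3 and 2 in replicates 1, 2 and 3 with no filter, which adds genes of 1 count or fewer, and 1, 2 and 1 in the second table. At 2-fold they were 0 in each replicate, and on log2(TPM + 1) there were 0 in replicate 2. The members higher in replicate 2 numbered 52 of 61 with DESeq2 size factors, 50 of 61 on log2(TPM + 1) and 58 of 62 in the second table. Depth limits the lowest genes most, in replicate 1 above all.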
